A study of Astyanax mexicanus with 96 samples.

Results

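The nuclear genes of respiratory complex I, taken as every gene whose symbol begins with nduf, were followed through cardiac injury in 2 populations of the Mexican tetra, Astyanax mexicanus. The rule found 51 of 27420 annotated genes, and 47 of them were among the 18763 genes tested. Of the 51, 10 were core subunits, 31 were supernumerary subunits, 7 were assembly factors (ndufaf genes) and 3 belonged to the ndufa4 class. The ndufa4 class was kept apart because the mammalian NDUFA4 protein is now held to be a subunit of complex IV. Of the tested members, 9 were core subunits, 29 supernumerary subunits, 7 assembly factors and 2 members of the ndufa4 class.

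Complex I (NADH:ubiquinone oxidoreductase) is the entry point of the mitochondrial respiratory chain: it takes electrons from NADH, passes them through a flavin and a row of iron-sulfur clusters to ubiquinone, and pumps protons across the inner membrane. Its core subunits carry out catalysis, its supernumerary subunits surround and stabilise the core, and assembly factors help to build the complex without remaining in it. Cardiac muscle, which relies on oxidative phosphorylation, is rich in mitochondria and in these transcripts.

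Libraries came from single cardiac ventricles of age-matched surface fish (SF) and Pachón cavefish (PC), 48 of each. Each population gave 3 uninjured ventricles, and 5 more for each of these times: 6 and 24 hours post sham (hps), 3 days post sham (dps), 6 and 24 hours after cryo-injury (hpci), and after cryo-injury also 3, 7, 14 and 30 days (dpci), which gave 20 groups. Freezing with a cold metal probe destroyed part of the muscle near the apex, and sham fish had the same operation without freezing. No transgene or drug was used, and the fish differed by population, operation and time. Early injury groups were compared with the sham group of their time, whereas 7, 14 and 30 dpci had no sham group and were compared with the uninjured ventricles of their population. All comparisons of those 3 times therefore share the same 3 uninjured ventricles per population. The 5 PC ventricles at 6 hpci carried the time as their treatment label and were read as cryo-injured. Whole ventricles were sequenced, so fewer cells of a type and less RNA per cell cannot be told apart.

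Total counts ran from 672292 to 2586602 per library, with a median of 1687721.5. Libraries correlated with the others of their group at a median Spearman rho of 0.897, and the lowest was PC 3 dps replicate 5 at 0.815, followed by 0.856. Replicate libraries differed beyond counting noise in all 186 pairs. Levels are given as CPM, the reads of a gene set against the scaled total of its library. The chemistry reads transcript 3′ ends, so transcript length hardly enters, and CPM were compared between genes on that per-transcript basis. A member passed the test when its adjusted p (edgeR quasi-likelihood, Benjamini-Hochberg over all 18763 genes) was under 0.05. The model held 1 factor of unwanted variation, a per-library covariate that the RUVg method estimates from low-variation genes. Of the 47 members, 44 were themselves among the 9381 genes that defined this factor, and the factor correlated with the mean log2 level of the subunits across the 96 libraries (r = 0.588; 0.594 after centring on group means). With the nduf genes and complexes II to V left out of those genes, 84 of 85 named changes stayed the same and 0 reversed. Nearly all of the 9381 genes stayed in that setting. It therefore cannot show whether the factor also took up changes of the subunits. The factor also differed between compared groups. It was 0.06623, 0.1117 and 0.1569 in uninjured SF and -0.01312, -0.01914 and -0.03067 in uninjured PC. In PC at 7 dpci it ran from -0.203 to -0.1491, below all uninjured PC ventricles. In such comparisons the effects of the factor and of the group are only partly separable. Counts are therefore from the fit with the factor unless the text says otherwise, and the main ones are also given without it. With the factor in the model, a fitted log2 change need not equal the log ratio of the mean CPM. Of the other settings, fitting the compared groups alone changed the most calls, followed by 2 factors in place of 1 and a stricter filter (at least 10 counts in at least 5 libraries), which left 44 members tested. Under the stricter filter the factor was also estimated anew, from the genes kept. The counts of these settings are given where they end or turn a result.

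Most members were abundant and a few were silent. The subunits with a median of at least 1 read per library numbered 36 and had a median of 439.3 CPM over all libraries. The most abundant subunit was ndufs7, a core subunit that carries the last iron-sulfur cluster before ubiquinone, at 2111 CPM. NDUFB1, a small supernumerary subunit of the membrane arm, followed at 1346 CPM. The gene ndufa4l of the ndufa4 class stood above all subunits at 3682 CPM, while its paralogue ndufa4 had 29.82 CPM. The assembly factors were far lower, from 22.57 CPM for ndufaf3 down to 2.256 CPM for ndufaf5, with median reads per library between 3 and 34.5. A small change in an assembly factor was therefore harder to detect than the same change in a subunit.

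Additional copies of core subunits were near 0. The annotation held a NDUFS8 copy (ENSAMXG00000042539, chromosome 24, 6166054 to 6168902, minus strand) at 1.96 CPM beside ndufs8a at 179.5 CPM. A NDUFV1 copy (ENSAMXG00000011619) had at most a few reads in any group and a mean of 0.02723 CPM, against 283.3 CPM for ndufv1. The genes with 0 reads in all libraries numbered 4: a NDUFS1 copy, a pair of ndufs4 copies and ndufa4l2b. In all, 16 of the 51 members, 13 of them tested, overlapped another gene model. Among the tested ones were ndufs7, NDUFB1, ndufs1, ndufs8a, ndufa1, ndufa9a, ndufb2, ndufb4, ndufb6, ndufb10, ndufaf1 and ndufaf2. Whether counting used strand is not stated, so reads of overlapping genes cannot be told apart for these. The levels of these members, the high level of ndufs7 included, can hold reads of the other gene.

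The subunits moved through injury together, and the PC ventricles at 7 dpci were the low point. The PC 7 dpci group had the lowest mean of the 20 groups for 31 of the 36 subunits, and the highest group was SF 30 dpci for 15 and PC uninjured for 9. From the lowest to the highest group mean, the subunits spanned 2.585 to 4.701-fold, with a median of 3.398-fold. The summed level of the 38 tested subunits was 21840 ± 1814 CPM (SD, n = 3) in uninjured SF and 27830 ± 2679 CPM (SD, n = 3) in uninjured PC. The single uninjured ventricles lay between 20140 and 23750 CPM in SF and between 25570 and 30790 CPM in PC, so that the populations did not overlap.

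At 24 hpci the summed subunit level was 11780 ± 3105 CPM in SF and 15190 ± 3761 CPM in PC (SD, n = 5), against 21490 ± 2475 and 23090 ± 3111 CPM (SD, n = 5) at 24 hps. At 7 dpci it was 11620 ± 2021 CPM in SF and 8781 ± 2461 CPM in PC (SD, n = 5). The SF ventricles ran from 9850 to 14840 CPM and the PC ventricles from 6062 to 11760 CPM, an overlapping range with the lowest values in PC. By 30 dpci the sum stood at 27390 ± 4320 CPM in SF and 21150 ± 3046 CPM in PC (SD, n = 5). The SF mean was then above its uninjured mean and the PC mean below its own. The order of the population means was the reverse of that before injury. The SF ventricles (21880 to 33530 CPM) overlapped the PC ventricles (18080 to 24540 CPM) and the uninjured SF ventricles (20140 to 23750 CPM). The PC ventricles all lay below the uninjured PC ventricles (25570 to 30790 CPM).

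**Figure D1:**
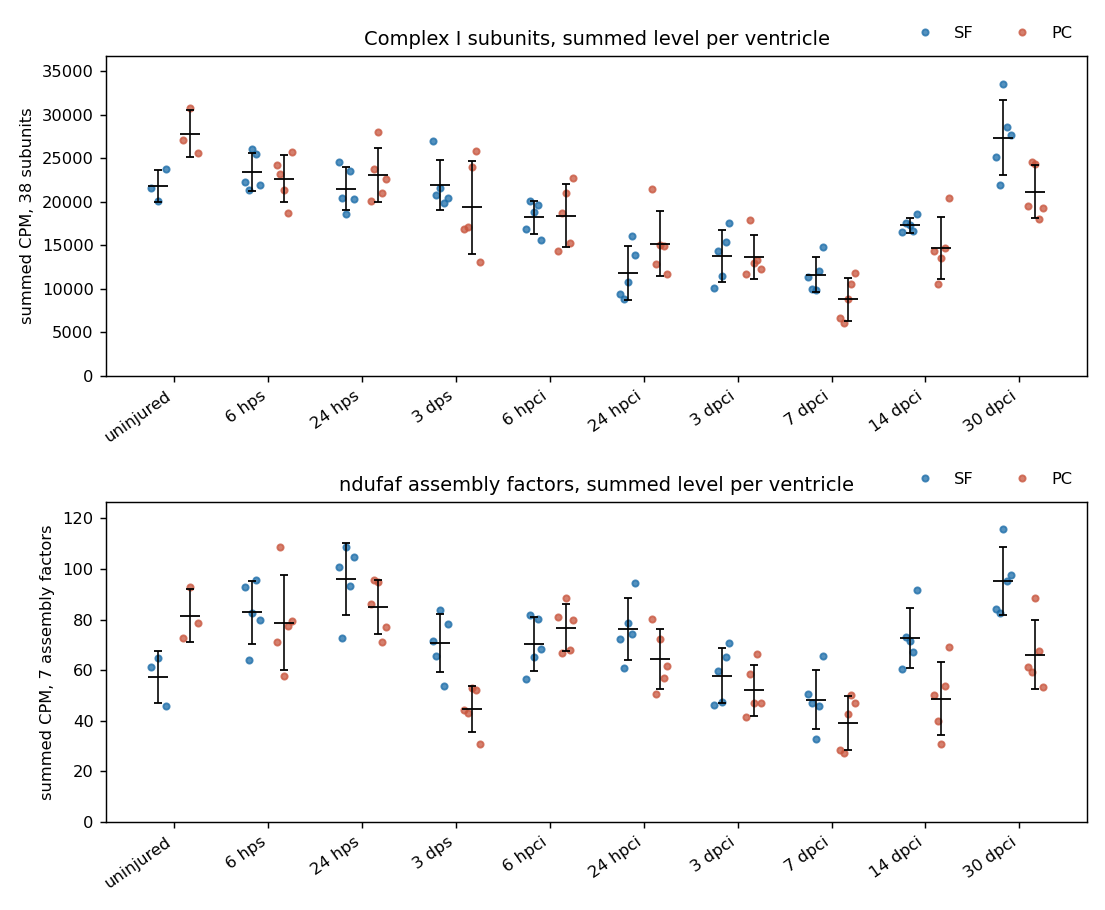
Summed CPM of the 38 tested complex I subunits (top) and of the 7 ndufaf assembly factors (bottom) in each of the 96 ventricles, by condition, with SF in blue and PC in red. Points are ventricles and bars are means ± SD; the subunit sum is lowest in PC at 7 dpci (8781 CPM) and highest in PC before injury (27830 CPM) and SF at 30 dpci (27390 CPM).

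Markers of cardiac muscle moved with the subunits. The summed level of 10 cardiomyocyte markers had group means of 118500 CPM in uninjured SF, 47110 CPM in SF at 7 dpci and 146600 CPM in SF at 30 dpci. In PC the corresponding means were 88620, 30280 and 79110 CPM. Over the same groups fibroblast and matrix markers (10 genes) went from 601.4 to 4595 and 1098 CPM in SF and from 607.3 to 4288 and 1141 CPM in PC. Leukocyte markers (18 genes) reached a highest group mean of 2240 CPM in PC at 7 dpci, and 7 of those 18 genes had no read in over 48 libraries. Erythroid markers (9 genes) ranged from 1399 to 102500 CPM between single libraries. The part of these cell types in the changes of the nduf genes was not tested.

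Set against the cardiomyocyte markers, the subunits showed another order. The summed subunit level was 18.5% ± 2.12 of the summed marker level in uninjured SF and 31.4% ± 2.69 in uninjured PC (SD, n = 3). At 24 hpci the share was 27.8% ± 3.33 in SF and 36.5% ± 3.33 in PC, and at 7 dpci 24.8% ± 2.12 and 29.3% ± 2.81 (SD, n = 5). At 30 dpci it was 18.8% ± 2.45 in SF and 26.8% ± 1.47 in PC (SD, n = 5). Relative to muscle markers the subunits were thus not at their lowest at 24 hpci or 7 dpci in SF, where their CPM were. The PC ventricles had higher shares than the SF ventricles before injury (28.7% to 34.1% against 16.1% to 19.9%) and at 30 dpci (25.1% to 28.7% against 15.5% to 22.4%), with no overlap.

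**Figure D2:**
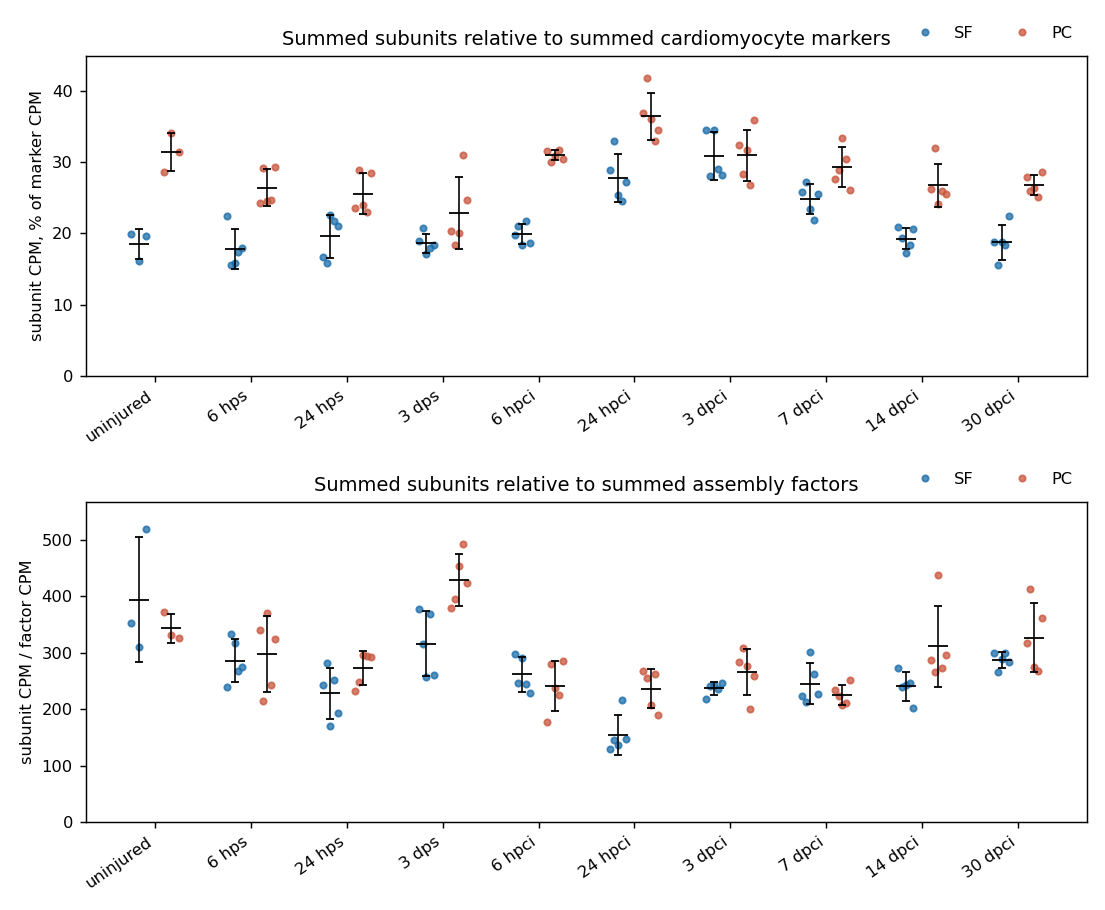
Summed subunit CPM as a percentage of the summed CPM of 10 cardiomyocyte markers (top) and divided by the summed CPM of 7 assembly factors (bottom), per ventricle and condition, with means ± SD. The percentage is higher in PC (31.4%) than in SF (18.5%) before injury, and the ratio to assembly factors is lowest in SF at 24 hpci (154.8) and highest in PC at 3 dps (429.6).

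Subunits and assembly factors did not keep a constant ratio. The assembly factors together had 57.3 ± 10.2 CPM in uninjured SF and 81.42 ± 10.5 CPM in uninjured PC (SD, n = 3). In SF at 24 hpci they had 76.15 ± 12.2 CPM (SD, n = 5) while the subunits were low, which gave the lowest ratio of subunits to assembly factors of the 20 groups, 154.8 ± 35.3 (SD, n = 5), with single ventricles from 129.2 to 216.7. The 24 hps ventricles of SF had a ratio of 228.5 ± 45.2 (SD, n = 5; 170.9 to 282.1), which overlapped. The highest ratio was in PC at 3 dps, 429.6 ± 45.7 (SD, n = 5), where the assembly factors had 44.65 ± 8.95 CPM. The ventricles of that group lay between 379.8 and 493.9, above all 5 SF ventricles of 3 dps, whose mean was 316.2 ± 57.4 (SD, n = 5). The sums are led by ndufaf3 and ndufaf2, the most abundant of the 7. At 3 dps ndufaf3 had means of 9.975 CPM in PC and 29.84 CPM in SF. The subunit minus assembly factor difference in mean log2(CPM + 1) weighs the members equally. At 3 dps this difference ran from 5.341 to 5.577 in PC and from 5.161 to 5.75 in SF, which overlapped. In uninjured SF it was 5.477, 5.455 and 6.344. The separation of the populations at 3 dps thus held for the sums and not on that scale.

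The populations were first compared before injury. With the factor, 28 of 47 members were lower in uninjured SF than in uninjured PC and 0 were higher, beside 3.42% of all genes lower. Without the factor 8 were lower and 0 higher (2.83% of all genes lower), and 7 members passed as lower in both fits. By class, 4 of 9 core subunits, 22 of 29 supernumerary subunits and 1 of 7 assembly factors were lower with the factor. The members had a median log2 difference of -0.95 with the factor, when the median over all genes was 0.1. DESeq2, fitted with the same factor, also called 0 members higher. No member was higher at an unadjusted p under 0.05 in the edgeR fit with the factor. The CPM ranges of the populations did not overlap for 16 members, all lower in SF, beside 8.76% of all genes.

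The member with the smallest adjusted p was ndufb11, a supernumerary subunit of the membrane arm (ENSAMXG00000033977, chromosome 6, 49602864 to 49608043, plus strand, on the surface fish assembly of the deposited annotation), with 516.7, 543.1 and 566.3 CPM in SF and 1065, 1071 and 909.7 CPM in PC. All SF ventricles were below all PC ventricles, at a fitted log2 difference of -1.51 ± 0.22 (SE, edgeR adjusted p 1.87e-07). Without the factor the difference was -0.91 and still passed (edgeR adjusted p 0.00392). The core subunit ndufs3, which lies in the matrix arm that carries electrons, had 113.7, 56.96 and 44.89 CPM in SF and 175.5, 255.1 and 192.5 CPM in PC. Again the groups did not overlap, and the log2 difference was -1.51 ± 0.35 with the factor (SE, edgeR adjusted p 0.00177) and -1.52 without it (edgeR adjusted p 0.000298). The supernumerary subunit ndufb5 had 180.3, 149.3 and 137 CPM in SF and 350.2, 326.5 and 309 CPM in PC, and passed in both fits.

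For other members the call rested on the factor. The levels of ndufs7 were 2946, 2749 and 3800 CPM in SF and 3579, 4327 and 3824 CPM in PC, which overlapped. Its fitted log2 difference was -1.39 ± 0.24 with the factor (edgeR adjusted p 2.19e-05) and -0.30 without it (edgeR adjusted p 0.597). The gene ndufa4l had the higher CPM in SF (6248 against 5262 on average), yet its fitted difference was -0.84 with the factor (edgeR adjusted p 0.0147) and 0.25 without it (edgeR adjusted p 0.721). Among assembly factors, ndufaf3 had 12.41, 6.874 and 19.69 CPM in SF against 18.39, 35.73 and 29.75 CPM in PC. It passed as lower in SF with the factor (-1.61 ± 0.45, edgeR adjusted p 0.015), not without it (-1.08, edgeR adjusted p 0.0992).

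Across the other conditions the population difference depended on time and on the factor. At the sham and early injury times 13 members were lower in SF at 6 hps (4.08% of all genes), 20 at 24 hps (4.16%), 15 at 6 hpci (4.58%), 27 at 24 hpci (5.14%) and 11 at 3 dpci (4.05%) with the factor. Without it the counts were 1 lower and 4 higher at 6 hps (3.85% of all genes higher), 6 and 1 at 24 hps (4.49% lower), 0 and 2 at 6 hpci (4.33% higher), 2 and 0 at 24 hpci (4.18% lower) and 3 and 1 at 3 dpci (4.3% lower). With the factor 6 were lower and 1 higher at 3 dps (4.11% of all genes lower), 2 and 2 at 7 dpci (2.71%), 4 and 2 at 14 dpci (4.47%) and 7 and 1 at 30 dpci (3.23%). Without it the calls at those times were mostly higher in SF, with 2 members at 3 dps (4.47% of all genes), 8 at 7 dpci (4.49%), 5 at 14 dpci (4.89%) and 11 at 30 dpci (5.2%). The lower calls were then 0, 1, 0 and 0. In the CPM values themselves, 11 members had all SF ventricles above all PC ventricles at 30 dpci and 0 the reverse, beside 4.52% of all genes higher. The stricter filter also gave mostly higher calls at the late times, with 19 members higher and 0 lower in SF at 30 dpci (10.6% of all genes higher), 18 and 0 at 14 dpci (10%) and 11 and 1 at 7 dpci (8.73%). With 2 factors the counts at those times were 1, 5 and 5 higher (2.12%, 3.29% and 3.15%) and 0 lower. Over the 10 conditions together, 8 calls were higher and 133 lower with the factor, 34 and 21 without it, 16 and 37 with 2 factors, and 86 and 30 under the stricter filter. These totals count a member once per condition and are given without the share of all genes. The direction of the population difference after injury therefore depended on the processing, while before injury 13 members under the stricter filter (7.12% of all genes) and 14 with 2 factors (3.11%) were lower in SF and 0 higher. The median of all genes also moved with the factor, by 0.13 on the log2 scale at 7 and 14 dpci and by 0.12 at 30 dpci.

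The only member lower in SF in all 10 conditions with the factor was ndufa7, a supernumerary subunit of the matrix arm, at log2 differences of -1.17 before injury and -0.85 at 30 dpci. Its 30 dpci levels were 234, 191.5, 245.5, 176.9 and 224.5 CPM in SF and 181.8, 222.2, 227.2, 218.2 and 182.5 CPM in PC. These overlapped throughout, and without the factor the 30 dpci difference was 0.06. In the other direction stood ndufa9a, which helps to hold the matrix arm to the membrane arm in mammals. At 7 dpci it had 193.2, 280.8, 225.6, 382.7 and 441.4 CPM in SF and 128.4, 114.9, 110.3, 92.54 and 173.5 CPM in PC. The groups did not overlap, and it passed as higher in SF with the factor (0.85 ± 0.23, edgeR adjusted p 0.0119) and without it (1.30, edgeR adjusted p 4.26e-06). It was also higher in SF at 14 dpci, by 0.73 with the factor (edgeR adjusted p 0.0173).

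At 3 dps ndufaf3 (ENSAMXG00000033274, chromosome 22, 18451301 to 18460332, plus strand), which acts in early steps of complex I assembly in mammals, differed in both fits. It had 30.8, 23.76, 39.11, 25.42 and 30.11 CPM in SF and 6.736, 11.14, 13.85, 11.11 and 7.035 CPM in PC. Every SF ventricle was above every PC ventricle, at a log2 difference of 1.19 ± 0.34 with the factor (edgeR adjusted p 0.0143) and 1.59 without it (edgeR adjusted p 6.98e-05). Without PC 3 dps replicate 5, the library with the lowest correlation to its group, the difference with the factor was 1.15 (edgeR adjusted p 0.0218).

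**Figure D3:**
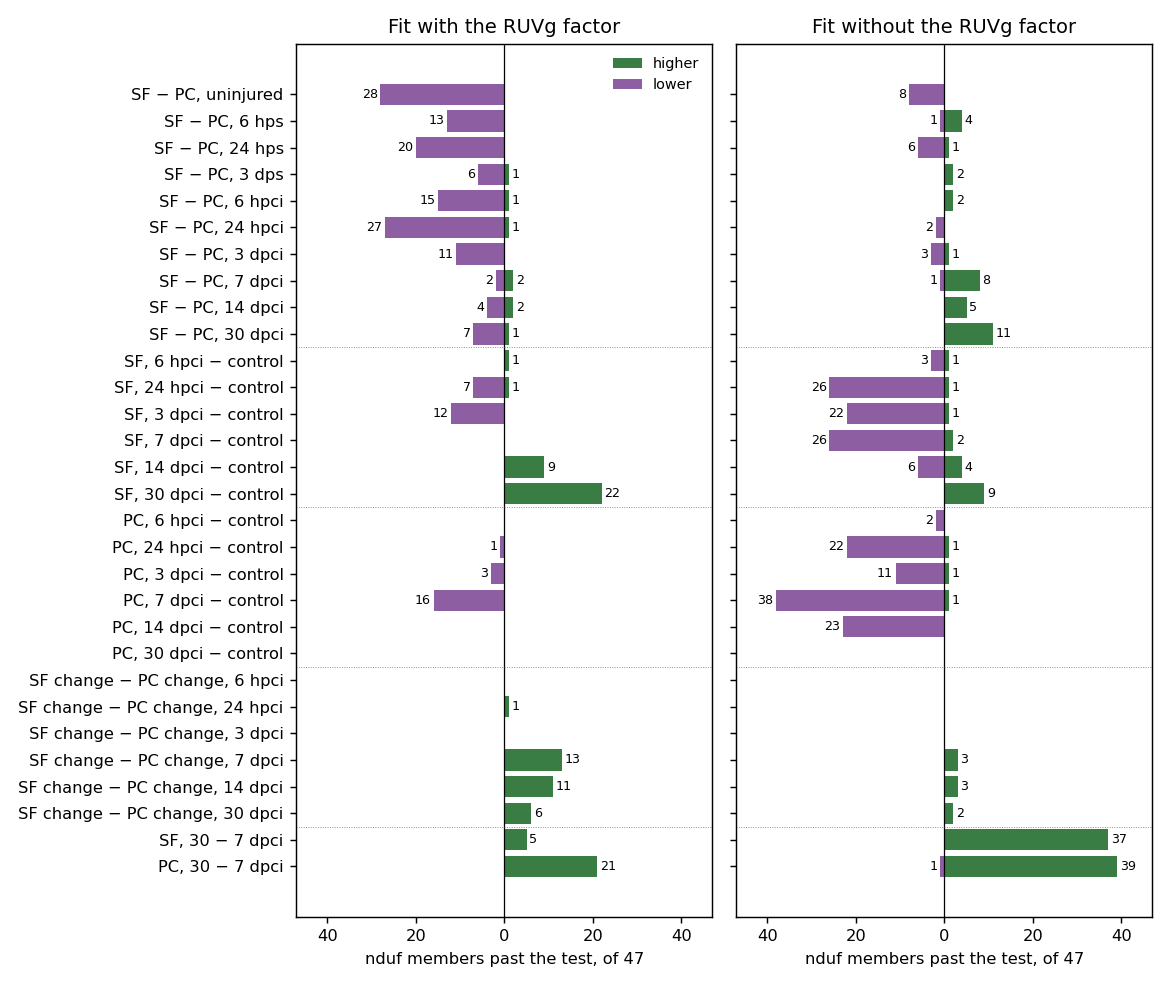
Number of the 47 tested nduf members that passed the test as higher (green, right of 0) or lower (purple, left of 0) in each comparison, in the fit with the RUVg factor (left panel) and without it (right panel). In uninjured ventricles 28 members are lower in SF with the factor and 8 without it, and at 7 dpci in PC 16 are lower than in uninjured ventricles with the factor and 38 without it.

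Injury was then compared with its control within each population. In SF at 24 hpci, 7 members fell and 1 rose with the factor (1.19% of all genes lower), and 26 fell and 1 rose without it (3.96% lower). All 8 calls with the factor were also made without it. The leading gene was ndufv2, a core subunit of the NADH-oxidising module, with 941.3, 849.3, 479.3, 740.9 and 598.3 CPM at 24 hps and 218.2, 223.8, 273.4, 323.9 and 298.8 CPM at 24 hpci. The injured ventricles were all below the sham ventricles, by -0.83 ± 0.18 on the log2 scale with the factor (edgeR adjusted p 0.00377) and -1.43 without it (edgeR adjusted p 2.55e-07). The supernumerary subunit ndufs4, needed for a stable matrix arm in mammals, fell by 0.80 (edgeR adjusted p 0.00986). In contrast ndufs3 did not pass, at 106.8 ± 32.1 CPM against 103.3 ± 24.3 CPM (SD, n = 5).

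The supernumerary subunit ndufa12 led at 3 dpci in SF, where 12 members fell with the factor (3.76% of all genes) and 22 without it (5.41%). It had 615.9, 511.6, 530.8, 412.8 and 503.4 CPM at 3 dps and 178.8, 246.8, 144.6, 283.4 and 259.6 CPM at 3 dpci. The groups did not overlap, and it fell by 0.79 on the log2 scale with the factor (edgeR adjusted p 0.00016). Neither with 2 factors nor under the stricter filter did any member pass in SF at 24 hpci or 3 dpci (0 of 47 and 0 of 44). Over the 6 SF injury comparisons the 52 calls became 26, 32 and 16 when replicate 1, 2 or 3 of each group was left out. At 6 hpci in SF 1 member, ndufa4, rose with the factor (0.645% of all genes higher), and 3 members fell without it (0.879% lower).

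In PC fewer members passed early after injury with the factor: 0 at 6 hpci (0.677% of all genes lower), 1 at 24 hpci (0.863%) and 3 at 3 dpci (1.65%). The member at 24 hpci was ndufa12, at -0.53 (edgeR adjusted p 0.0495), and those at 3 dpci were led by ndufa9a at -0.75 (edgeR adjusted p 0.0228). Without the factor the PC counts were 2, 22 and 11 members lower (1.4%, 2.91% and 2.9% of all genes). At 6 hpci in PC, 3 members had higher and 9 lower values at an unadjusted edgeR p under 0.05, and DESeq2 called 0. The interaction, meaning how far the change in SF exceeded the change in PC, passed for 0 members at 6 hpci and 3 dpci and for 1 at 24 hpci (0.101% of all genes higher). At an unadjusted edgeR p under 0.05, 0 members differed at 6 hpci, 3 were positive and 5 negative at 24 hpci, and 2 differed at 3 dpci. DESeq2 called 0 at 6 hpci and 3 dpci and 1, positive, at 24 hpci.

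At 7 dpci the subunits of PC were at their lowest. With the factor 16 members fell against uninjured PC and 0 rose (1.47% of all genes lower), and without it 38 fell and 1 rose (6.77% lower). All 16 fell in both fits, and 38 members had every 7 dpci ventricle below every uninjured ventricle, beside 8.37% of all genes. The members called were 3 core subunits, with ndufs7 and ndufs3 among them, and 13 supernumerary subunits, with 0 of 7 assembly factors. The summed assembly factors were nevertheless also at their lowest of the 20 groups, at 39.05 ± 10.6 CPM (SD, n = 5). These ventricles (27.16 to 50.15 CPM) all lay below the uninjured PC ventricles (72.71 to 93.06 CPM). The smallest adjusted p belonged to ndufb3, a membrane-arm subunit, with 1865, 1501 and 1936 CPM before injury and 389.1, 302.4, 437.3, 466.9 and 675.3 CPM at 7 dpci. It fell by 1.57 on the log2 scale with the factor (edgeR adjusted p 8.66e-05) and by 1.96 without it. The supernumerary subunit ndufb7 went from 941.9, 1153 and 907.3 CPM to 195.6, 172.6, 257.4, 345.7 and 387.8 CPM, and also fell without overlap (-1.33, edgeR adjusted p 0.000605). The count of 16 became 0 with 2 factors and 2 under the stricter filter, and over the 6 PC injury comparisons the 20 calls became 2, 12 and 1 when replicate 1, 2 or 3 of each group was left out. Cardiomyocyte markers had 30280 CPM in this group against 88620 CPM in uninjured PC, and their part was not tested.

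In SF at 7 dpci the answer rested on the factor. With it 0 of 47 members passed (1.27% of all genes lower), with 4 higher and 1 lower at an unadjusted edgeR p under 0.05 and 1 in each direction by DESeq2. Without it 26 fell and 2 rose (7.65% of all genes lower). In CPM, 23 members had all 7 dpci ventricles below all uninjured SF ventricles (7.79% of all genes), among them ndufs7, which had a mean of 1015 ± 198 CPM (SD, n = 5) against 3165 ± 559 CPM (SD, n = 3).

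At 30 dpci members were higher than before injury in SF and not in PC. In SF 22 members rose with the factor and 0 fell (2.57% of all genes higher), and 9 rose without it (2.12%), all of them among the 22. With 2 factors 26 rose (2.55% of all genes) and under the stricter filter 25 (5.31%), again with 0 falling. The 9 included the core subunit ndufs3, the assembly factor ndufaf3 and the supernumerary subunits ndufb5 and ndufc2. At 14 dpci in SF 9 members rose with the factor (1.76% of all genes), of which 3 also rose without it. Another 3 of the 9 had a fitted change of the opposite sign without the factor. In the fit without the factor 6 members fell, and the share of all genes that fell there is not given here. In PC 0 members passed at 30 dpci in either fit (0.203% of all genes higher and 0.314% lower with the factor), with 1 higher and 2 lower at an unadjusted edgeR p under 0.05 and 0 by DESeq2. At 14 dpci in PC 0 passed with the factor (0.16% lower), 20 were lower at an unadjusted edgeR p under 0.05, DESeq2 called 3 lower, and 23 fell without the factor (1.12%). The shares of all genes at an unadjusted p and by DESeq2 are not given here, so those counts cannot be set against them.

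The core subunit ndufs3 (ENSAMXG00000039139, on an unplaced scaffold) had 229.9, 154.9, 280.3, 268 and 197.2 CPM in SF at 30 dpci, all above the uninjured SF ventricles (113.7, 56.96 and 44.89 CPM). It rose by 1.64 ± 0.29 on the log2 scale (edgeR adjusted p 6.7e-05), and by 1.64 without the factor. Uninjured SF had the lowest ndufs3 mean of the 20 groups, 71.84 CPM. The SF sham means were 116.1, 103.3 and 123.8 CPM at 6 hps, 24 hps and 3 dps. Single sham ventricles reached 180.1 CPM, within the range of 30 dpci. In PC ndufs3 had 182.9, 239.5, 234.7, 174.6 and 207.4 CPM at 30 dpci, which overlapped the uninjured PC ventricles (175.5, 255.1 and 192.5 CPM). At 30 dpci the SF and PC ventricles also overlapped, so the populations differed for ndufs3 before injury and were not distinguished after it (log2 difference 0.13, edgeR adjusted p 0.97). The same held for ndufb5, with 404.6, 310.5, 475.1, 385.9 and 384.6 CPM in SF at 30 dpci and 248.8, 444.4, 354.7, 270.9 and 314 CPM in PC. In SF ndufb5 rose by 1.34 against uninjured ventricles (edgeR adjusted p 0.000127), with no overlap.

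The difference between the populations in their change since the uninjured state was tested as the interaction. With the factor it was positive, meaning that SF gained more or lost less than PC, for 13 members at 7 dpci (0.64% of all genes), 11 at 14 dpci (0.693%) and 6 at 30 dpci (0.277%), and negative for 0 at each time. At an unadjusted edgeR p under 0.05 the counts were 38, 36 and 28 positive and 0 negative, and DESeq2 called 23, 18 and 13 positive and 0 negative. The shares of all genes under those rules are not given here, so these counts cannot be set against them. Without the factor 3, 3 and 2 members passed (0.229%, 0.336% and 0.133% of all genes), and all of these had also passed with it. With 2 factors 15, 21 and 13 passed (0.783%, 0.799% and 0.512% of all genes) and under the stricter filter 12, 20 and 18 (1.18%, 1.56% and 1.55%), all positive. The median interaction of the 47 members was 0.85, 0.86 and 0.70 on the log2 scale with the factor, against 0.03, 0.02 and 0.02 over all genes. The 3 times share the same uninjured ventricles in which the SF levels were lower than the PC levels, so they are not independent of each other or of that difference.

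By class, ndufs3 was the only core subunit with a called interaction, at 1.76 ± 0.38 at 7 dpci (SE, edgeR adjusted p 0.00607), 1.74 at 14 dpci (edgeR adjusted p 0.00952) and 1.64 at 30 dpci (edgeR adjusted p 0.019). It passed at all 3 times without the factor as well. When replicate 3 of each group was left out, its adjusted p (edgeR) was 0.183, 0.178 and 0.432, and the whole count of called interactions went from 31 to 1. It was 11, 8, 17 and 17 when replicate 1, 2, 4 or 5 was left out. The uninjured ventricles were numbered 1, 2 and 3 in SF and 1, 3 and 5 in PC. Leaving out a number therefore removed unlike parts of the uninjured groups, and the counts are not directly comparable. Replicate 3 held the lowest ndufs3 value of uninjured SF, 44.89 CPM, and the highest of uninjured PC, 255.1 CPM. Among the supernumerary subunits, ndufb5 had interactions of 1.62 ± 0.33 at 7 dpci (edgeR adjusted p 0.00262) and 1.34 at 30 dpci (edgeR adjusted p 0.0291). The 12 supernumerary subunits called at 7 dpci were ndufa5, ndufa6, ndufa11, ndufb4, ndufb5, ndufb6, ndufb7, ndufb10, ndufb11, ndufc2, ndufs5 and ndufs6.

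Of the 7 assembly factors 0 had a called interaction at 7 dpci and 1, ndufaf3, at 14 and 30 dpci. Its SF values at 14 dpci were 18.62, 27.36, 37.46, 20.8 and 37.24 CPM and its PC values 11.86, 15.37, 8.177, 20.11 and 23.02 CPM. The ndufaf3 mean of uninjured SF was 12.99 CPM. In SF it was 43.32 CPM at 24 hps, after sham surgery alone, and 39.22 CPM at 30 dpci. The interaction was 2.12 ± 0.50 at 14 dpci (SE, edgeR adjusted p 0.0165; 0.0468 without the factor) and 1.90 at 30 dpci (edgeR adjusted p 0.0461; 0.0714 without the factor). The median interaction of the assembly factors, 1.06, 1.51 and 1.18 at the 3 times, was above that of the core subunits (0.65, 0.62 and 0.53) and of the supernumerary subunits (0.90, 0.86 and 0.73). Their standard errors were wider, reaching 1.25 on the log2 scale for ndufaf5 at 7 dpci against 0.33 for ndufb5. The difference between the classes was not tested.

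**Figure D4:**
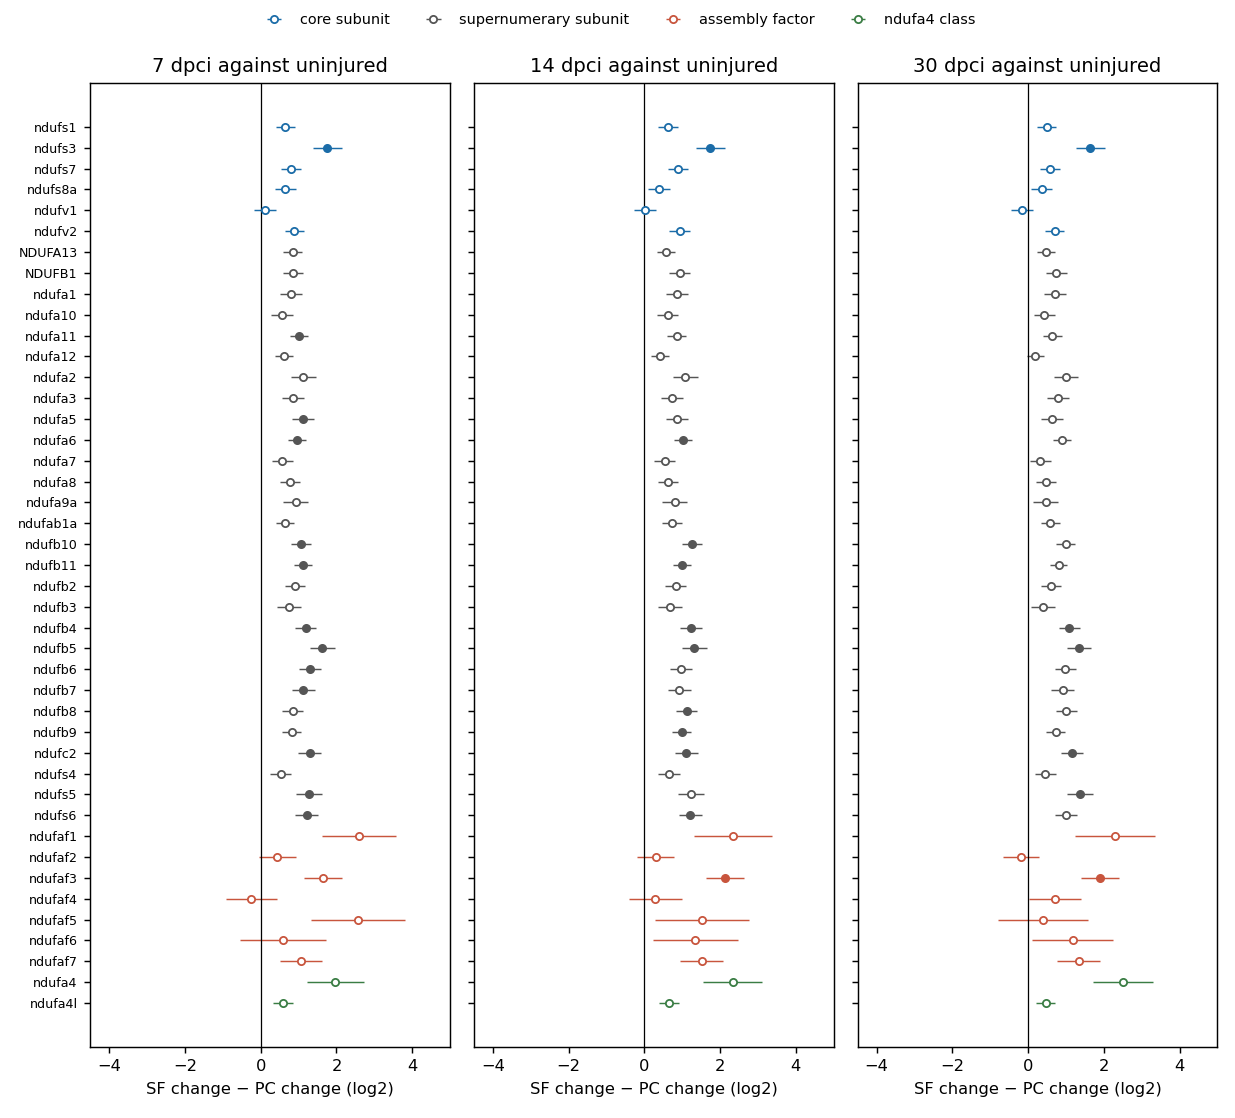
Fitted interaction (SF change minus PC change since the uninjured state, log2 scale, with the RUVg factor) of 43 members at 7, 14 and 30 dpci, with bars of ± 1 SE, coloured by class; filled points passed the test. Nearly all points lie right of 0, ndufs3 passes at each time (1.76, 1.74 and 1.64), and the assembly factors have the widest bars.

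The comparison of 30 with 7 dpci gave calls in 1 direction with the factor. In SF 5 members rose with the factor (1.21% of all genes) and 37 without it (5.84%), and in PC 21 rose with the factor (2.06%) and 39 without it (5.9%), with 1 falling. All calls with the factor were also made without it. With 2 factors 1 member rose in SF and 0 in PC, and under the stricter filter 2 and 0. The 26 calls of both populations became 6, 11 and 10 when replicate 1, 2 or 3 was left out, and 0 when the compared groups were fitted alone. The mean CPM of ndufa4 was lower at 30 than at 7 dpci (33.97 against 53.55 in SF and 13.8 against 28.58 in PC). The CPM ranges of 7 and 30 dpci were apart, with 30 dpci higher, for 35 members in each population, beside 4.52% of all genes in SF and 4.86% in PC. The genes ndufb7, ndufc2, ndufs3 and ndufs5 passed in both populations with the factor. The gene ndufb7 rose by 0.99 in SF (edgeR adjusted p 0.00843) and by 1.21 in PC (edgeR adjusted p 8.14e-05). With the PC groups fitted alone the value turned to -0.22 for ndufb7, -0.01 for ndufc2 and -0.61 for ndufs3. The recovery itself did not differ detectably: 0 members had an interaction for 30 against 7 dpci (0.176% of all genes higher), 2 were negative at an unadjusted edgeR p under 0.05, and DESeq2 called 0.

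The tested genes of the ndufa4 class did not move together. The abundant ndufa4l followed the subunits, at group means of 6248, 2098 and 6301 CPM in uninjured, 7 dpci and 30 dpci SF and of 5262, 1385 and 3649 CPM in PC. The rare ndufa4 (ENSAMXG00000012092, chromosome 4, 15837170 to 15840354, minus strand) went in the opposite direction. In SF it had 14.41, 10.8, 18.66, 5.524 and 15.96 CPM at 24 hps and 46.01, 43.92, 42.16, 59.88 and 117.6 CPM at 24 hpci, with no overlap. It rose by 1.68 with the factor (edgeR adjusted p 0.0136) and by 2.23 without it (edgeR adjusted p 4.14e-05). In PC the 24 hpci values of 16, 35.63, 29.5, 30.75 and 35.07 CPM overlapped those of 24 hps (28.91, 51.22, 14.52, 14.85 and 26.96 CPM). The interaction at 24 hpci was 2.23 ± 0.54 with the factor (SE, edgeR adjusted p 0.0328) and 2.13 without it, where it did not pass (edgeR adjusted p 0.0809).

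In SF ndufa4 rose in 4 of 6 injury comparisons with the factor and in 6 of 6 without it. At 30 dpci it still had 47.2, 19.36, 36.94, 41.63 and 24.73 CPM, against 5.879, 7.856 and 1.575 CPM before injury (log2 change 2.48, edgeR adjusted p 0.00332). It was also higher in SF than in PC in 5 of 10 conditions with the factor and in 1 of 10 without it. After sham surgery at 6 hps in SF it passed as well with the factor (2.25, edgeR adjusted p 0.00826), at 17.13 ± 15.2 CPM (SD, n = 5), a range that overlapped the uninjured ventricles, and not without the factor (1.79, edgeR adjusted p 0.0531). In PC it passed in 0 of 6 injury comparisons in either fit, with log2 changes between -0.54 and 0.88 with the factor. In CPM, however, the PC ventricles at 3 dpci (36.14 to 51.26) all lay above those at 3 dps (14.44 to 27.85). Those at 7 dpci (19.52 to 39.76) all lay above uninjured PC (7.522 to 19). The other PC injury groups overlapped their controls. The median ratio of ndufa4l to ndufa4 was 1094 in uninjured SF, 34.94 at 24 hpci, 30.65 at 7 dpci and 218.2 at 30 dpci. In single uninjured SF ventricles the ratio ran from 701.8 to 4317, on 2 to 9 reads of ndufa4, so its size there is imprecise. The PC ratio was 702.3 before injury, 48.51 at 7 dpci and 410.6 at 30 dpci.

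In PC the NDUFS8 copy rose at 7 dpci and its abundant partner ndufs8a fell, both only in the fit without the factor. The copy had 0.8358, 0 and 0 CPM in PC before injury and 11.27, 7.355, 11.93, 3.582 and 8.813 CPM at 7 dpci. In SF it had no read in any of the 3 uninjured ventricles and 1.84, 1.829, 2.578, 1.747 and 2.597 CPM at 7 dpci. All 5 PC ventricles of 7 dpci were above all 5 SF ventricles. The PC mean of the copy was already 5.122 CPM at 24 hpci and 6.904 CPM at 3 dpci, against 0.7408 and 1.32 CPM in the shams of those times. Without the factor the copy passed as higher in 3 of 6 injury comparisons in PC and in 1 of 6 in SF. Without the factor it passed as lower in SF than PC (-1.98, edgeR adjusted p 0.045) and as higher at 7 dpci than before injury in PC (4.62, edgeR adjusted p 0.00248), on 1 uninjured PC ventricle with a read. With the factor it passed in neither (edgeR adjusted p for the PC change 0.789). Over the same ventricles ndufs8a went from 165.7 ± 15.6 CPM (SD, n = 3) to 85.79 ± 25.5 CPM (SD, n = 5) in PC. The NDUFV1 copy passed as lower in SF at 6 hpci (-3.31, edgeR adjusted p 0.0235), on 1 PC library with 1.642 CPM, and no difference is read from it.

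**Figure D5:**
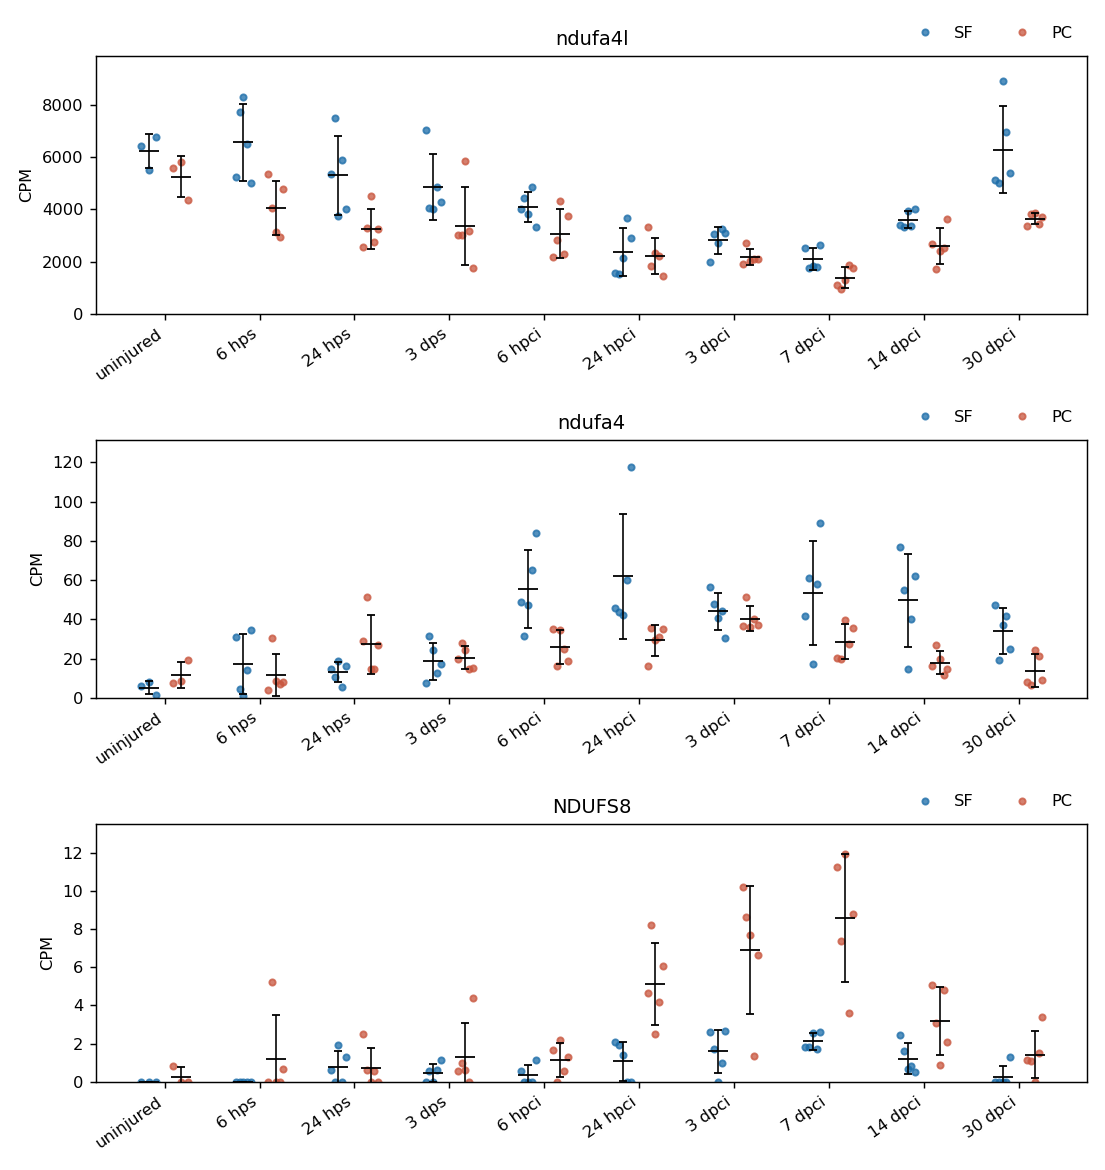
CPM of ndufa4l (top), ndufa4 (middle) and the NDUFS8 copy (bottom) in each ventricle by condition, SF in blue and PC in red, with means ± SD. The level of ndufa4l is lowest at 7 dpci, whereas ndufa4 is highest in SF at 24 hpci (61.9 CPM) and the NDUFS8 copy in PC at 7 dpci (8.59 CPM).

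The sham operation was compared with uninjured ventricles in each population. In SF 3 members fell and 1 rose at 6 hps with the factor (4.25% of all genes lower), 1 fell and 3 rose at 24 hps (5.52% higher), and 8 rose at 3 dps (1.82% higher). Without the factor 1, 3 and 3 rose (3.44%, 4.91% and 2.73% of all genes) and 0 fell. The member that rose at 6 hps with the factor was ndufa4. The assembly factor ndufaf3 had 43.87, 25.46, 50.83, 46.65 and 49.81 CPM at 24 hps, all above the uninjured SF ventricles, and rose by 1.64 (edgeR adjusted p 0.000451). In PC 24 members fell at 6 hps with the factor (3.2% lower), 5 at 24 hps (3.07%) and 1 at 3 dps (0.528%), while without it 1 member rose (3.42%) and 0 fell at 6 hps, 0 passed at 24 hps and 4 fell at 3 dps (1.04%). The stricter filter gave 4 members higher and 0 lower in PC at 6 hps (6.79% of all genes higher), and 2 factors gave 0 in either direction, so the fall at that time depended on both settings. Over all sham comparisons the 46 calls became 24 without replicate 1 of each group and 18 without replicate 3. In PC at 6 hps with the factor the largest fall was that of ndufa4l, at -1.20 (edgeR adjusted p 9.65e-06). Among subunits ndufa11, a supernumerary subunit of the membrane arm, had the smallest adjusted p there (-1.08, edgeR adjusted p 4.15e-05). In SF the stricter filter gave 20, 23 and 17 members higher at 6 hps, 24 hps and 3 dps (7.5%, 8.27% and 3.7% of all genes). The PC member at 3 dps was ndufaf3, which fell by 1.26 (edgeR adjusted p 0.0456). Without PC 3 dps replicate 5 its change was -1.21 and did not pass (edgeR adjusted p 0.0925).

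Other parts of the respiratory chain were set beside the members. In the interaction at 7 dpci with the factor, 2 of 4 complex II genes, 5 of 12 complex III genes, 5 of 20 complex IV genes and 3 of 19 complex V genes passed as positive and 0 as negative. At 14 dpci the counts were 2, 6, 4 and 3, and at 30 dpci 0, 3, 2 and 0. Without the factor they were 0, 1, 1 and 0 at 7 dpci, 1, 3, 1 and 0 at 14 dpci and 0, 2, 0 and 0 at 30 dpci. Of all genes, 0.64%, 0.693% and 0.277% were positive at the 3 times with the factor, and 0.229%, 0.336% and 0.133% without it. Of 12 further genes without an nduf symbol, listed by symbol as complex I assembly or related factors, 1 passed as positive at 7 dpci. Of 11 regulators of mitochondrial biogenesis 0 passed. In uninjured ventricles 2, 6, 14 and 9 genes of complexes II to V were lower in SF with the factor, and 0, 0, 1 and 1 higher, whereas without it 0, 2, 1 and 0 were lower. Of all genes, 3.42% were lower with the factor (2.83% without it), and 587 of 18763 were higher with it. At 30 dpci in SF 1, 8, 11 and 9 rose against uninjured ventricles with the factor and 0, 5, 7 and 1 without it. The shares of all genes that rose were 2.57% and 2.12%. Each of these complexes had its lowest group mean in PC at 7 dpci, as the nduf subunits did, and no difference between complex I and the other complexes was tested.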

How the data were processed

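The authors extracted RNA from single ventricles, made QuantSeq 3′ FWD libraries, sequenced them on an Illumina instrument, and processed reads with bcl2fastq 2.20.0, Trim Galore 0.6.4 and STAR 2.7.6a on the surface fish genome with a customized Ensembl release 103 annotation. As the genome was that of surface fish, diverged PC transcripts can be undercounted. The deposited table holds raw read counts per gene and library, not normalized, and every test used it; no row lacked a gene and 0 per-sample columns were left out. The authors' deposited table of regularized log2 values served only for its symbols. The strand setting of counting, the number of RUVg factors and any batch or date are not given in the sources used here.

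The 18763 genes that reached 1 CPM in any library entered a quasi-likelihood model (glmQLFit and glmQLFTest of edgeR 4.0.16 under R 4.3.3; all p-values two-sided) over all 96 libraries, with TMM scaling, a coefficient per group and 1 RUVg factor rebuilt from its algebra (log2 CPM with a prior count of 1; controls were genes with a coefficient of variation under the median). The SE was taken as the log2 change over the square root of F. The scripts were tested on simulated data. Groups and replicate numbers came from the sample titles. Nothing states that replicates are more than separate fish of one group. Named in each comparison were the 2 subunits and the 2 assembly factors with the smallest adjusted p per direction, the ndufa4 class, the largest fitted change, and members that passed in all conditions; the NDUFS8 copy was added after its values were seen, and the values of 1 member are not reported here. Alternatives were no factor, 2 factors, other control genes, DESeq2 1.42.0, RLE scaling, other filters, a fit of only the groups compared, a replicate block, a fold change above 2, leaving out each replicate, and, added after seeing the data, leaving out PC 3 dps replicate 5. The DESeq2 fit held the same RUVg factor. Counts from DESeq2, at an unadjusted p or summed over several comparisons are given without the share of all genes. The members and lists were chosen with earlier results of these data known.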

Additional observations from a re-analysis of the deposited data

Results flagged for a closer look

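Interactions of injury and population passed for 31 values of members, all positive, meaning that the change in SF exceeded that in PC. At 24 hpci this was ndufa4 at 2.23 on the log2 scale. At 7 dpci the values were 1.76 for ndufs3, 1.62 for ndufb5, 1.31 for ndufb6, 1.29 for ndufc2, 1.28 for ndufs5, 1.21 for ndufs6, 1.19 for ndufb4, 1.12 for ndufb7, 1.11 for ndufb11, 1.11 for ndufa5, 1.06 for ndufb10, 1.01 for ndufa11 and 0.96 for ndufa6. At 14 dpci they were 2.12 for ndufaf3, 1.74 for ndufs3, 1.32 for ndufb5, 1.25 for ndufb10, 1.22 for ndufb4, 1.21 for ndufs6, 1.12 for ndufb8, 1.11 for ndufc2, 1.01 for ndufa6, 0.99 for ndufb9 and 0.99 for ndufb11. At 30 dpci they were 1.90 for ndufaf3, 1.64 for ndufs3, 1.38 for ndufs5, 1.34 for ndufb5, 1.16 for ndufc2 and 1.09 for ndufb4. The values of 7, 14 and 30 dpci share the uninjured ventricles, and 1 interaction in all passed when replicate 3 of each group was left out.

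Single ventricles lay far from the others of their group in 9 of 90 groups and quantities tested, where chance gives about 1 in 20. The summed subunit level was 17950 CPM in PC 3 dpci replicate 2, with the nearest ventricle at 13340 CPM, and the same ventricle had the highest ndufa4l (2726 CPM, nearest 2115) and ndufa4 (51.26 CPM, nearest 40.28) of its group. In SF 3 dps replicate 1 the subunit sum was 27040 CPM (nearest 21570) and ndufa4l 7056 CPM (nearest 4873). The ratio of subunits to assembly factors was 438.8 in PC 14 dpci replicate 3 (nearest 295.5) and 216.7 in SF 24 hpci replicate 4 (nearest 146.6). The ndufa4 level was 117.6 CPM in SF 24 hpci replicate 5 (nearest 59.88) and 30.36 CPM in PC 6 hps replicate 2 (nearest 8.747).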

How the results depend on the processing

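Of 85 named changes, tried under 1273 alternatives, 934 kept their direction and their side of the threshold, 308 kept the direction only and 31 reversed. DESeq2 (with the same factor) and RLE scaling reversed 0 and ended 0 and 1. Control genes without the nduf genes and complexes II to V reversed 0 of the 85 changes and ended 1. The calls with 1 factor numbered 141 (SF against PC), 52 (cryo-injury in SF), 20 (cryo-injury in PC), 31 (interaction), 26 (30 against 7 dpci) and 46 (sham). In that order, no factor gave 55, 101, 99, 8, 77 and 12 calls, and 2 factors gave 53, 38, 0, 50, 1 and 20. The stricter filter gave 116, 35, 5, 51, 2 and 73, fitting the compared groups alone 27, 7, 1, 40, 0 and 20, and a fold change above 2 gave 52, 12, 8, 28, 6 and 12. DESeq2 called 40 for cryo-injury in PC, 55 for the interaction and 72 for sham, and no filter gave 48 for the interaction. With each replicate number left out in turn the counts ran from 107 to 130, 16 to 42, 1 to 21, 1 to 17, 6 to 32 and 18 to 36. The uninjured ventricles were numbered 1, 2 and 3 in SF and 1, 3 and 5 in PC, so each number removed another part of them. Without PC 3 dps replicate 5, chosen after seeing the data, they were 137, 51, 26, 31, 29 and 43, and 2 of the 85 changes no longer passed (ndufaf3 in PC at 3 dps, and ndufa7 between populations at 7 dpci with an edgeR adjusted p of 0.0566). Same-numbered samples did not deviate together (45 pairs of SF and PC, correlations from -0.20 to 0.19; 30 pairs of cryo-injury and sham, from -0.23 to 0.37), so the numbers were not taken as pairs, and the replicate block gave 134, 45, 21, 25, 30 and 37 calls. Without the factor the SF minus PC log2 difference turned to 0.25 (uninjured) and 0.09 (24 hpci) for ndufa4l, to 0.08 (3 dps), 0.23 (7 dpci) and 0.30 (30 dpci) for ndufs7, and to 0.07 (7 dpci) and 0.06 (30 dpci) for ndufa7, while in SF NDUFB1 at 14 dpci turned to -0.13 and ndufa4l at 6 hps to 0.07. The stricter filter turned SF minus PC to 0.07 (uninjured) and 0.33 (24 hpci) for ndufa4l, to 0.20 (3 dps), 0.11 (7 dpci) and 0.31 (30 dpci) for ndufs7, and to 0.11 (14 dpci) and 0.07 (30 dpci) for ndufa7. It turned sham changes in SF to 0.35 (ndufs7), 0.43 (ndufa11) and 0.58 (ndufa4l) at 6 hps and 0.61 (ndufa4l) at 24 hps, and in PC to 0.06 (ndufa11), 0.21 (ndufs7) and 0.17 (ndufa4l) at 6 hps and 0.0 (ndufs7) at 24 hps. With the compared groups fitted alone, SF minus PC was 0.02 for ndufa4l (uninjured) and -0.14 for ndufa4 (7 dpci), NDUFB1 at 14 dpci in SF -0.56, ndufb7 at 7 dpci in PC 0.94, and 30 against 7 dpci in PC -0.22 for ndufb7, -0.01 for ndufc2 and -0.61 for ndufs3. The fits of the compared groups alone kept the factor estimated from all libraries, which did not overlap between uninjured and 7 dpci PC ventricles. The SE of ndufb7 at 7 dpci in PC was then 0.76, so the sign of its fitted change is uncertain. The CPM of ndufb7 fell there without overlap. The cause of these shifts was not tested. Taking the mean of log2(CPM + 1) over members gave subunit to assembly factor ratios of 19.52 (SF 24 hpci), 32.72 (SF 24 hps), 45.1 (PC 3 dps) and 43.13 (SF 3 dps), on another scale than the ratio of sums. On that scale the SF and PC ventricles of 3 dps overlapped. Assembly factors, with median reads between 3 and 34.5, limit what the depth can show, and a missing call among them does not show equal levels.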
